A study of Mus musculus with 32 samples.

Results

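The colon of mice exposed to a carcinogen and an irritant was compared between animals without Myd88 and wild-type animals. The comparison is of the 20 treated samples among the 32 of the series, 10 labelled treated Myd88 knockout and 10 labelled treated WT, each a distal colon measured on its own Affymetrix mouse expression array. KO mice were Myd88-/- and WT mice wild-type, both given as strain C57 BL6NCr, with the knockout backcrossed until at least 98% congenic and the controls drawn from an identical background. At an age of 6 to 8 weeks the treated mice were injected intraperitoneally with azoxymethane (AOM) at 10 mg/kg. After 1 week they drank dextran sodium sulfate (DSS) at 2% for 3 days in a row and were then killed. The 12 untreated mice (6 KO and 6 WT of the same strain) carry no treatment and no age in the labels, and serve here only as the background of the genotype. The knockout is of the whole body, its deleted stretch is not named in the labels, and the repeat numbers are not described as pairs or litters.

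Myd88 is the adaptor that carries signals from most Toll-like receptors and from the receptors of IL-1 and IL-18 to IRAK kinases and on to NF-kappaB. In the gut these receptors sense bacterial products and cytokines released by a damaged lining. AOM is a procarcinogen that alkylates DNA in the colon, and DSS injures the epithelium and exposes it to bacteria. Together they are a common model of tumours that arise in an inflamed colon, and the samples here date from the early injury. The comparison asks how the colon without Myd88 differs at that point.

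The arrays carried the markers of the labelled tissue. Hoxb13, a homeobox gene of the most distal gut, was between 10.74 and 11.60 log2 units on the treated WT arrays and between 10.61 and 11.73 on the treated KO arrays. The mean signal of 16 colon epithelium genes lay between 11.53 and 12.09 in treated WT and between 11.99 and 12.35 in treated KO mice. Some arrays also carried genes of other tissue. The mean of 23 squamous epithelium genes, found in skin and anal canal, read 11.31 on the array of WT repeat 1 and 9.01 on that of WT repeat 2, against 4.28 to 7.89 in the 8 other WT and 4.33 to 7.56 in the 10 KO arrays. Of these 23 genes all were lower in KO and 0 were called by limma, with 4 at an unadjusted p under 0.05. The mean of 17 skeletal muscle genes reached 9.63 in WT repeat 4 and 9.32 in KO repeat 9. The counts of called genes in each list below were therefore also computed without treated WT repeats 1 and 2, and with both tissue means (squamous epithelium, skeletal muscle) as covariates. Under either change 0 genes were called in the lists of enteroendocrine, EGF receptor, IL-6 family and mitosis genes described below. No count with the covariates is given for the immunoglobulin genes, and neither change is given for the count near Myd88. Arrays of the same genotype correlated with r between 0.935 and 0.983 across probe sets. Xist, the RNA of the silenced X chromosome in females, was high in repeats 1 to 5 and low in repeats 6 to 10 of both treated genotypes. A bulk signal cannot tell fewer cells of a type from less RNA per cell, here and in every result that follows.

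**Figure D1:**
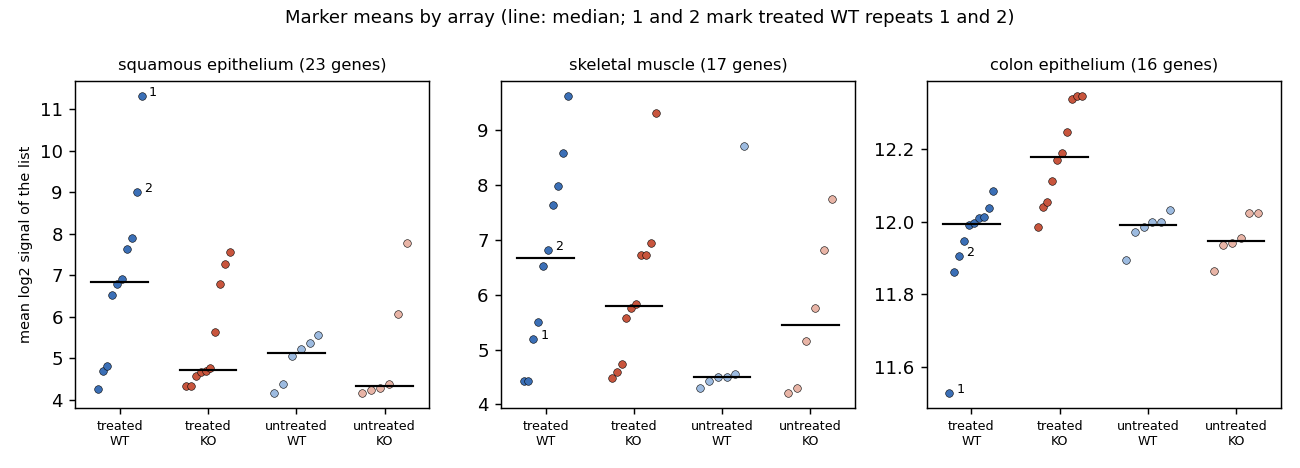
Mean log2 signal of the squamous epithelium, skeletal muscle and colon epithelium marker lists (vertical axes) on each array of the 4 groups (dots), with the group median as a line. The dots numbered 1 and 2 are treated WT repeats 1 and 2, whose squamous means of 11.31 and 9.01 lie above those of all other arrays.

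Limma was fitted to the 20 treated arrays over 34945 probe sets with a single gene symbol, with calls made where the p adjusted by Benjamini-Hochberg was under 0.05. Differences are KO minus WT in log2 units with their standard error. A total of 2146 probe sets were called, 6.14% of those tested, 1148 higher (3.29%) and 998 lower (2.86%) in KO. Represented by its brightest probe set, a gene was called in 1222 of 18193 cases (6.72%), 616 of them higher (3.39%) and 606 lower (3.33%). Most of these differences were small: their median size was 0.43, and 82 genes differed at least 2-fold, 53 higher and 29 lower. Without treated WT repeats 1 and 2 the count was 600 genes (3.3%), of which 549 were shared with the full set, and with the tissue covariates it was 379 (2.08%). Among called probe sets the share higher in KO was 53.5% after quantile normalization, 77.9% with each array centred on its median, which shifted the median of all genes by 0.07, and 41.0% for the values as deposited. Leaving out 1 array moved the count of probe sets past 1.5 times for 5 of the 20: it was 1318 without WT repeat 4, 1339 without WT repeat 2, 1362 without WT repeat 8, 1406 without KO repeat 5 and 3339 without KO repeat 9. A core of 495 genes, 235 higher and 260 lower, kept the call with any 1 of the 20 arrays left out and without WT repeats 1 and 2 together. These calls are described below as held.

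Myd88 itself, measured by a single probe set, fell in treated KO colon but was not lost. Its signal ran from 8.26 through a median of 8.49 to 8.61 in treated WT mice and from 7.50 through 8.08 to 8.31 in treated KO mice, so the groups overlapped slightly. The difference was -0.46 ± 0.10 (adjusted p = 0.0149), against -0.73 between the untreated genotypes (adjusted p = 0.000755). The probe set may lie outside the deleted part and so is no full check of the labels. Among treated KO arrays its signal was lowest in repeats 9, 1 and 6, at 7.50, 7.64 and 7.65. Of 39 measured genes within 50 places of Myd88 on either side in the gene order of its chromosome, 3 were called (7.69%, near the 6.72% of all genes): Itga9, Ctdspl and Mobp. In untreated mice 2 of these 39 were called, Itga9 and Ctdspl, where the share of all genes was 0.132%. The call of Mobp, at 0.77 ± 0.22, was not held: it ended at an adjusted p of 0.115 without WT repeats 1 and 2, and of up to 0.0762 without any 1 of WT repeats 1, 2, 6, 7, 8 and 10 or KO repeats 1, 2, 4, 5, 7, 8 and 10.

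Several clear separations were genotype differences that untreated mice also showed. Efhd2, a calcium-binding protein of immune cells, lay between 11.51 and 11.86 (median 11.80) in WT and between 9.45 and 10.14 (median 9.78) in KO mice, and differed by -1.98 ± 0.09 (adjusted p = 8.98e-11). Ptp4a2, a prenylated tyrosine phosphatase, lay between 10.22 and 11.17 (median 10.73) in WT and between 12.28 and 12.66 (median 12.39) in KO mice, a difference of 1.74 ± 0.11 (adjusted p = 1.43e-08). Neither gene overlapped between the treated genotypes. Of the 2 probe sets of Efhd2, 1 was called, and of the 4 of Ptp4a2, 3 were called higher and 1 lower, so its probe sets disagreed. Cep85, a centrosome protein, fell by 2.00 with no overlap, from 6.88 to 8.13 in WT and from 4.71 to 6.35 in KO arrays. Itga9, an integrin subunit, and Ctdspl, a phosphatase, lie 20 and 13 places before Myd88 and differed by 1.71 ± 0.16 and -1.36 ± 0.15, again without overlap. S100g, the calcium-binding calbindin of absorptive cells that vitamin D induces, had the largest fall, -2.84 ± 0.59 (adjusted p = 0.00961). Its signal ran from 6.41 through a median of 7.69 to 8.75 in treated WT mice and from 3.32 through 4.06 to 7.99 in treated KO mice. KO repeats 6, 8 and 9 lay inside the WT range, and 5 other KO arrays were at the floor of the scale. Erdr1 rose by 1.86 ± 0.30 (adjusted p = 0.00252), with WT repeat 4, at 8.81, inside the KO range.

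In untreated mice these 7 genes differed the same way: Efhd2 by -2.30, Ptp4a2 by 1.59, Cep85 by -1.35, Itga9 by 1.49, Ctdspl by -0.89, S100g by -2.36 and Erdr1 by 2.43. That fit, on 6 against 6 other arrays, called 24 genes (0.132%). Of them 17 (70.8%) were also called in treated mice, all 17 with the same sign, and they were 1.39% of the genes called there. In gene order, 9 of the 24, Ptp4a2 included, lay within 400 places of Ptp4a2 (a window chosen after the values were seen). Apart from Myd88, 4 lay on the chromosome of Myd88. The share of all measured genes in these stretches is not given here, so the counts do not show a clustering. Gda, guanine deaminase of the purine pathway, was called untreated at -0.62 by its brightest probe set. That probe set pointed the other way in treated mice at 0.58 ± 0.27, which was not called (adjusted p = 0.226). Another Gda probe set was called higher in treated mice, at 0.90 ± 0.25 (adjusted p = 0.0417), and was at -0.68 untreated, not called (adjusted p = 0.175). The remaining probe set, at 0.63 in treated mice, was not called there (adjusted p = 0.205). Mid1, a microtubule-bound ubiquitin ligase, also separated the treated genotypes without overlap, at 1.61 ± 0.18 (adjusted p = 8.47e-05). It differed by 1.53 without treatment, which was not called (adjusted p = 0.325). The untreated KO arrays split there. Repeats 1 to 3 lay between 5.98 and 6.36, close to the untreated WT range of 5.39 to 6.01. Repeats 4 to 6 lay between 7.94 and 8.84. Of the 3 probe sets of Mid1, 1 was called. Gpatch3 was at -1.10 ± 0.24 with and -1.15 without treatment, and Rhbg, an ammonium transporter, at -1.19 ± 0.24 and -0.90. These mean differences were similar, with the untreated ones not called.

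**Figure D2:**
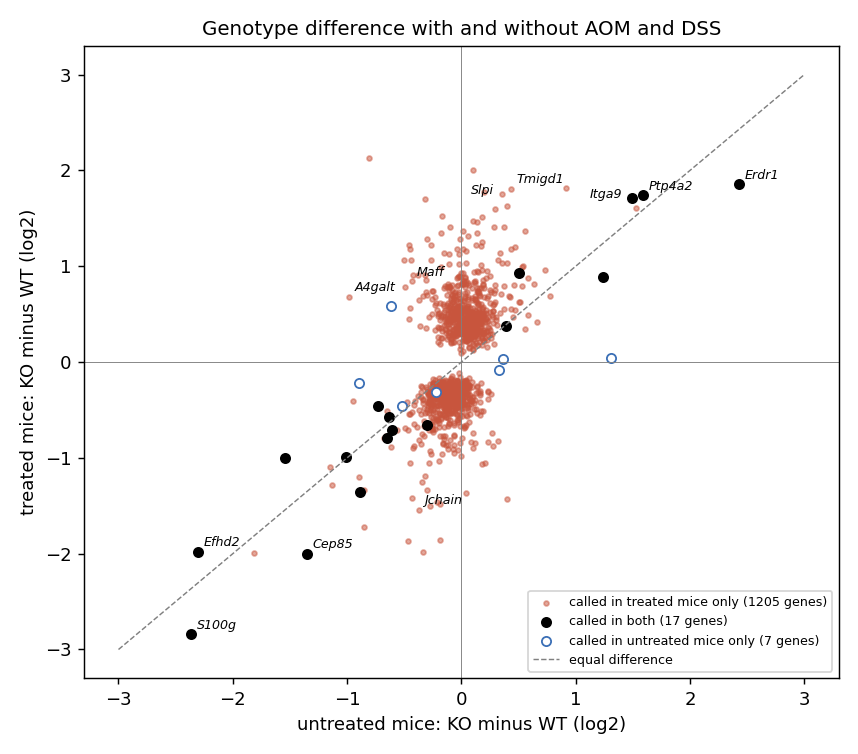
KO minus WT difference (log2) of each called gene in untreated mice (horizontal axis, 6 against 6 arrays) and treated mice (vertical axis, 10 against 10 other arrays). The 17 genes called in both (black) lie near the dashed line of equal difference, while most genes called in treated mice alone spread along the vertical axis. A gene called in 1 fit and not in the other is not thereby shown to differ between them.

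The other large rises were of genes with small untreated differences. Slpi, the secreted inhibitor that shields mucosa from neutrophil elastase, rose 3.38-fold. Its signal ran from 8.39 through a median of 9.68 to 10.29 in treated WT mice and from 8.61 through 11.60 to 12.44 in treated KO mice. The difference was 1.76 ± 0.40 (adjusted p = 0.0167), and 9 of the 10 KO arrays were above every WT array, while KO repeat 6, at 8.61, was among the lowest of both groups. Tmigd1, an adhesion protein of the epithelial surface, lay between 5.90 and 6.69 (median 6.30) in WT and between 6.10 and 9.67 (median 8.23) in KO mice. It differed by 1.81 ± 0.35 (adjusted p = 0.00687), again with KO repeat 6 inside the WT range, at 6.10. P2ry2, the receptor for extracellular ATP and UTP, rose by 1.48 ± 0.29 (adjusted p = 0.00824), from a WT median of 3.57, close to the floor, to 5.36. Cwh43, which remodels the lipid of GPI anchors, rose by 1.59 ± 0.29 (adjusted p = 0.00485), with 5.88, 6.80 and 7.64 as lowest, median and highest WT array and 7.13, 8.58 and 9.35 in KO. Mgat4c, of a family that branches N-glycans, and Tmem181a, a membrane protein, rose by 1.52 ± 0.30 (adjusted p = 0.00734) and 1.41 ± 0.29 (adjusted p = 0.0102). The ranges of these last 4 genes overlapped between the genotypes. All 6 genes of this paragraph have a single probe set. With the tissue covariates the adjusted p of P2ry2 was 0.0518.

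Among the largest falls not called in untreated mice, Jchain, which links immunoglobulins into the polymers that are secreted, dropped by 1.54 and is described with the other antibody genes below. Igkv4-72, a kappa variable gene, was 3.99-fold lower (adjusted p = 0.00266) with treatment and differed by -1.81 in log2 without it (adjusted p = 0.331). Zan, a membrane protein known from sperm, differed by -1.98 ± 0.36 (adjusted p = 0.00485): its lowest, median and highest WT arrays were at 4.75, 6.12 and 6.47, and 6 of the 10 KO arrays were at the floor. C1qtnf3, a secreted protein of the C1q and TNF-related family, lay between 7.12 and 8.37 (median 7.73) in WT and between 5.24 and 7.33 (median 6.72) in KO mice, a difference of -1.19 ± 0.26 (adjusted p = 0.0141). The groups overlapped for all 4 of these genes.

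The promoters of 5 genes called higher are shown. Il11 and Mmp3 are genes of injured stroma, Tmigd1 and Cldn4 of the epithelial surface, and Car9 of the response to low oxygen. They were picked after their values were seen. Each holds the letters marked below, so the display does not show how common those letters are. Each run is the 250 bases before a RefSeq start of the gene, 5′ to 3′, from a table on GRCm38.p6: Il11 at chr7:4778142-4778391 (minus strand), Mmp3 at chr9:7445572-7445821 (plus strand), Tmigd1 at chr11:76890870-76891119 (plus strand), Cldn4 at chr5:134946935-134947184 (minus strand) and Car9 at chr4:43506776-43507025 (plus strand). Capitals mark the letters TGANTCA of an AP-1 site in the first 4 and ACGTG, the core of a hypoxia response element, on the reverse strand in Car9, where TGANTCA also occurs and is left in lower case.
Il11: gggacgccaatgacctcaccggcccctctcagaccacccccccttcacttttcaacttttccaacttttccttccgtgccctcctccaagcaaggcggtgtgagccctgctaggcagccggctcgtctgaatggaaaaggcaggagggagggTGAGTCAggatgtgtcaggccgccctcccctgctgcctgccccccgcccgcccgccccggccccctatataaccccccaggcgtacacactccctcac
Mmp3: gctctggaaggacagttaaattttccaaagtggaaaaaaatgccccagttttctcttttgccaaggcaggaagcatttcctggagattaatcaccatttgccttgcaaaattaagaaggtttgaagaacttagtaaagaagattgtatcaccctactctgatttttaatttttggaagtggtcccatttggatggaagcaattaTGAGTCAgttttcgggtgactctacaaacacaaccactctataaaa
Tmigd1: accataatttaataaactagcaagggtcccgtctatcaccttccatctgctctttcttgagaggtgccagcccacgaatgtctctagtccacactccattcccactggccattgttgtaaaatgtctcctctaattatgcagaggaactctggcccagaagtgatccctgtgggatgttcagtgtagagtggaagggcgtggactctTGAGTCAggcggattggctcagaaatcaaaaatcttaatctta
Cldn4: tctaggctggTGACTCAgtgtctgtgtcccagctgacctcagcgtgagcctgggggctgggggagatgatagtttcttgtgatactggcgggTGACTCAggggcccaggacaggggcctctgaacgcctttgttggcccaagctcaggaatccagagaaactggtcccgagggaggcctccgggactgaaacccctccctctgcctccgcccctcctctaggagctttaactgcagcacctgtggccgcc
Car9: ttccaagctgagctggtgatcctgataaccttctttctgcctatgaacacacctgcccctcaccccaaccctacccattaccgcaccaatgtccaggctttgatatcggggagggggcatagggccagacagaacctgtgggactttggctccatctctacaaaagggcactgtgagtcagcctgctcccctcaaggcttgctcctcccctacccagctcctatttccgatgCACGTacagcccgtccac

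The AP-1 letters begin 98 bases before the start in Il11, 46 in Mmp3, 43 in Tmigd1, and 240 and 158 in Cldn4, and the hypoxia letters of Car9 begin 18 bases before it. Il11 and Tmigd1 each have 2 RefSeq starts in that table; the window shown is the one that holds the letters, and the window of the other start holds 0 matches. Searched on both strands of windows from 250 bases before to 50 after each start, TGANTCA was in 7.81% of 32851 promoters and ACGTG in 19.6%. By gene, 1090 of 14452 measured genes with a promoter held TGANTCA (7.54%). The count was 18 of 194 (9.28%) for the genes with a held rise and 15 of 218 (6.88%) for those with a held fall, both near the share of all genes. ACGTG was in 30.9% of the genes with a held rise against 26.1% of all. A match describes these letters and is not evidence that a factor binds.

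Around the missing adaptor, 4 of 22 measured Toll-like receptors, adaptors and kinases were called (18.2% against 6.72% of all genes), 3 higher and 1, Myd88 itself, lower, with a list median of 0.19 against 0 over all genes. Irak2, the kinase that Myd88 recruits, rose by 0.31 ± 0.07 (adjusted p = 0.0153), with 7.18, 7.35 and 7.56 as lowest, median and highest WT array and 7.34, 7.67 and 7.98 in KO. Ticam1, the TRIF adaptor of the Myd88-independent branch, rose by 0.54 ± 0.13 (adjusted p = 0.023), and Tollip, an inhibitor of receptor signalling, by 0.20 ± 0.05 (adjusted p = 0.032). Those last 2 calls ended without WT repeats 1 and 2 (adjusted p = 0.0563 and 0.0707), and that of Tollip also, at up to 0.0598, without any 1 of WT repeats 2, 4, 5, 7 and 10 or KO repeats 2 and 5. None of the 3 kept its call with the tissue covariates, at adjusted p of 0.0684, 0.127 and 0.103.

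Among 18 genes of the IL-1 and IL-18 family, 1 was called (5.56%, near the 6.72% of all genes). Il1rn, the antagonist of the IL-1 receptor, rose by 0.67 ± 0.15 (adjusted p = 0.0147) in 2 of its 3 probe sets, and lay between 8.73 and 9.64 (median 9.19) in WT and between 9.19 and 10.38 (median 9.92) in KO mice; with the tissue covariates its adjusted p was 0.0731. Il18, the epithelial cytokine whose receptor signals through Myd88, was bright and close to equal, between 11.03 and 11.80 (median 11.46) in WT and between 11.04 and 11.74 (median 11.37) in KO mice, at -0.06 ± 0.10 (adjusted p = 0.783). Il1b differed by 0.29 ± 0.30 (adjusted p = 0.636). Of 16 feedback genes of NF-kappaB, Nfkbia, the inhibitor that NF-kappaB induces, was the 1 called (6.25%, near the 6.72% of all genes). It was called lower in 2 of its 5 probe sets, at -0.53 ± 0.15 (adjusted p = 0.0477) in the brightest and -0.52 ± 0.10 (adjusted p = 0.00542) in the next brightest. For the brightest, 16 of the 20 single arrays ended the call when left out, at an adjusted p of up to 0.0839; the 4 without which it stayed were KO repeats 3, 8, 9 and 10.

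Secreted cytokines and chemokines were mostly dim. Of 39 measured, 0 were called higher and 1 lower (2.56% called, against 6.72% of all genes). The 1 was Ccl28, described with the antibody genes. Tnf differed by 0.15 ± 0.43 (adjusted p = 0.917) and Cxcl2, a neutrophil attractant, by 0.64 ± 0.40 (adjusted p = 0.397). Il6 was at the floor in all 10 WT arrays and in 7 of 10 KO arrays, the highest of which was at 6.40. No direction among these 3 passed the test.

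Among 20 genes of the IL-6 family and of STAT3 feedback, 17 were higher in KO, 2 of them called (10%, against 6.72% of all genes). The median was 0.32 (0.00 in untreated mice). Il11, a stromal cytokine that acts on epithelium through gp130 and STAT3, rose by 1.77 ± 0.43 (adjusted p = 0.022). It was at the floor in 6 of 10 WT arrays and in 0 of 10 KO arrays. Its signal ran from 3.32 through a median of 3.32 to 5.00 in treated WT mice and from 3.85 through 5.19 to 8.29 in treated KO mice, the top value being KO repeat 3. Jak2, the kinase of these receptors, rose by 0.32 ± 0.08 (adjusted p = 0.0332) in both of its probe sets. Without WT repeats 1 and 2 their adjusted p was 0.058 and 0.0955. The call of Il11 lasted with any single array left out; that of Jak2 ended without any 1 of WT repeats 1, 2, 4, 8 and 10 or KO repeats 4, 5, 7 and 10, at up to 0.061. Socs3, the feedback inhibitor of STAT3, differed by 1.30 ± 0.56 and Stat3 by 0.33 ± 0.13, neither called (adjusted p = 0.179 and 0.148). The Socs3 signal spread from 6.79 in KO repeat 9 to 11.21 in KO repeat 3.

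Matrix remodelling genes showed the highest median of the pathway lists, 0.62 (0.14 untreated), and 16 of 17 were higher in KO. Only 2 were called (11.8%, against 6.72% of all genes). Mmp3, stromelysin, rose by 1.82 ± 0.48 (adjusted p = 0.031), with 5.09, 5.84 and 6.91 as lowest, median and highest WT array and 5.93, 7.96 and 9.79 in KO. It was highest in KO repeats 3 and 10, at 9.79 and 9.56, and within the WT range in KO repeats 1, 6 and 9. Plaur, the urokinase receptor, rose by 0.74 ± 0.20 (adjusted p = 0.0372). Neither call was held: without WT repeats 1 and 2 the adjusted p was 0.0742 and 0.0968. Mmp3 lost its call without any 1 of WT repeats 2, 4, 8 and 10 or KO repeats 4, 5, 7 and 10 (up to 0.0588), and Plaur without any 1 of 13 arrays (up to 0.0696), namely WT repeats 1, 2, 3, 4, 6, 7, 8 and 10 and KO repeats 3, 4, 5, 7 and 10. Mmp10 differed by 1.39 ± 0.61, which was not called (adjusted p = 0.188).

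Growth factor genes differed in both directions. Of 15 genes of the EGF receptor system 2 were called higher, Tgfa, a ligand, at 0.43 ± 0.11 (adjusted p = 0.0263), and Erbb2, a receptor, at 0.40 ± 0.10 (adjusted p = 0.0262). Lrig1, which restrains these receptors, was called lower at -0.53 ± 0.15 (adjusted p = 0.0414). The share of this list called was 20%, against 6.72% of all genes. The other probe sets of Tgfa and Lrig1 were not called. Without WT repeats 1 and 2 the adjusted p of the 3 was 0.0674, 0.0792 and 0.0957; WT repeat 4 alone ended each of them too, at up to 0.0518 for Tgfa, 0.0511 for Erbb2 and 0.0779 for Lrig1. WT repeat 8 did so for Tgfa and Lrig1, and 11 further arrays for Lrig1: WT repeats 2, 3, 5 and 7 and KO repeats 1, 2, 3, 4, 5, 7 and 10. The ligands Ereg, at 0.93 ± 0.50, and Hbegf, at 0.67 ± 0.31, were not called (adjusted p = 0.297 and 0.223). Areg was not analysed here. Ptgs2, the inducible cyclooxygenase, differed by 1.12 ± 0.42 (adjusted p = 0.117), with 5.87, 6.63 and 7.31 as lowest, median and highest WT array and 6.42, 7.43 and 10.28 in KO; its KO repeats 3 and 4 were highest, at 10.28 and 9.11. Of 18 prostaglandin genes 1 was called (5.56%, near the 6.72% of all genes). This was Ptgds, at 0.61 ± 0.17 (adjusted p = 0.0369). Its call ended without any 1 of 11 arrays, WT repeats 4 to 9 and KO repeats 1, 4, 6, 7 and 10. The adjusted p was then up to 0.0679.

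Several epithelial lists held genes called higher, though most of their members were not called. Of 22 goblet cell genes 5 were called higher and 0 lower (22.7% against 3.39% of all genes higher), with a median of 0.30 and 0.06 without treatment. Tff3, the trefoil peptide secreted with mucus, rose by 0.25 ± 0.06 (adjusted p = 0.0196). Capn9, a calpain of mucous cells, rose by 0.67 ± 0.14 (adjusted p = 0.0097) and Bace2, a membrane protease, by 0.47 ± 0.10 (adjusted p = 0.0107, 1 of 5 probe sets). Spink4, a secreted protease inhibitor, at 0.43 ± 0.10, and Galnt12, which starts mucin O-glycans, at 0.44 ± 0.11, were also called. These 2 calls ended without WT repeats 1 and 2 (adjusted p = 0.0527 and 0.08), and Galnt12 without WT repeat 4 alone (0.0505). Muc2, the main secreted mucin, was near the top of the scale in both groups, at 0.15 ± 0.08 (adjusted p = 0.278). Of 23 genes of antimicrobial defence 1 was called higher, Slpi, and 1 lower, Pigr (8.7% called, against 6.72% of all genes). The list median was 0. Retnlb, the bactericidal resistin-like protein of goblet cells, varied widely between arrays. Its signal ran from 3.32 through a median of 5.18 to 9.37 in treated WT mice and from 3.32 through 9.40 to 11.56 in treated KO mice. KO repeat 6 was at the floor along with 2 WT arrays, while KO repeats 3 and 5 were at 11.56 and 11.41; the difference of 3.20 ± 1.05 did not pass (adjusted p = 0.0746).

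Genes of the absorptive surface leaned up as well. Of 24 mature enterocyte and brush border genes 6 were called higher and 0 lower (25%, against 3.39% of all genes higher). The median was 0.31 (-0.02 untreated). Fabp2, the intestinal fatty acid-binding protein, rose by 1.03 ± 0.21 (adjusted p = 0.00893), and lay between 7.01 and 8.07 (median 7.36) in WT and between 7.63 and 9.35 (median 8.59) in KO mice. The other 5, whose calls were not held, were Krt20, Vil1, Cdhr2, Eps8 and Alpi, with adjusted p between 0.0691 and 0.0826 without WT repeats 1 and 2. All 5 but Eps8 also ended without at least 1 of WT repeats 1, 2, 4, 6, 7, 8 and 10 or KO repeats 2 to 7, at up to 0.0705. Of 32 genes of salt and water transport 3 were called higher and 1 lower (12.5% called, against 6.72% of all genes). Guca2a, guanylin, the peptide that drives chloride and water secretion, rose by 1.04 ± 0.20 (adjusted p = 0.00745): it was at 10.21, 11.34 and 11.94 as lowest, median and highest WT array and at 11.60, 12.38 and 12.69 in KO. Slc5a8, which takes up butyrate with sodium, fell by 0.91 (SE 0.21, adjusted p = 0.0175), between 10.28 and 11.02 (median 10.73) in WT and between 8.92 and 10.75 (median 9.76) in KO mice. Slc9a3, the sodium-proton exchanger, at 1.23 ± 0.30, and Scnn1a, a subunit of the sodium channel, at 0.42 ± 0.11, were called higher but not held (adjusted p = 0.0772 and 0.0901 without WT repeats 1 and 2); Scnn1a also ended without any 1 of WT repeats 1, 2 and 4 or KO repeats 2, 4, 5 and 7, at up to 0.0584.

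Clca4a, of the family of calcium-activated chloride channel regulators, rose 2.33-fold. Its signal ran from 10.38 through a median of 10.89 to 11.21 in treated WT mice and from 10.80 through 12.41 to 12.87 in treated KO mice, a difference of 1.22 ± 0.26 (adjusted p = 0.0127), with KO repeats 8 and 9 inside the WT range. Its relative Clca4b differed by 1.21 ± 0.85 with far more spread (adjusted p = 0.454), and the near-identical genes of this family may share signal between probes. Clca2, at -0.69 ± 0.19, was called lower, but dim, and not held: the adjusted p was 0.0778 without WT repeats 1 and 2 and up to 0.0737 without any 1 of WT repeats 2, 4, 6, 8 and 10 or KO repeats 4, 5, 7 and 10. Of 19 tight junction genes 3 were called higher (15.8%, against 3.39% of all genes higher), all claudins that seal. Cldn4 rose by 0.66 ± 0.13 (adjusted p = 0.0068), and lay between 6.95 and 7.72 (median 7.45) in WT and between 7.47 and 8.45 (median 8.11) in KO mice. Cldn7 and Cldn3 rose by 0.35 ± 0.09 and 0.29 ± 0.08. The other probe sets of Cldn3 pointed up too but were not called. The adjusted p of Cldn7 was 0.0618 without WT repeats 1 and 2, and Cldn3 ended, at up to 0.0679, without any 1 of WT repeats 4, 5, 8 and 10 or KO repeats 1, 2, 4, 5, 7 and 10. Cldn2, the claudin that forms a leaky cation pore, pointed the other way at -2.16 ± 0.68 but did not pass (adjusted p = 0.0642): it was between 6.14 and 9.51 (median 7.99) in WT and between 3.32 and 9.82 (median 5.41) in KO mice, with KO repeat 9 above every WT array.

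The epithelial markers as a whole leaned the same way. Of 16 colon epithelium genes 15 were higher in KO, with a median of 0.19. The genes called higher were 5 (31.25%, against 3.39% of all genes). Of these 5, Krt20, Vil1 and Tff3 also belong to the lists above. Without WT repeats 1 and 2 the list held 1 called gene and a median of 0.14, and with the tissue covariates 0 and 0.11. The shares of all genes called in those fits were 3.3% and 2.08%. WT repeat 1, the array with the highest squamous mean, had the lowest epithelial mean at 11.53. The part of the amount of epithelium in these results was not tested. Without WT repeats 1 and 2 the called rises were 3 of 22 goblet genes and 1 of 24 enterocyte genes, with medians of 0.25 and 0.23. With the tissue covariates 0 of either list were called, with medians of 0.19 and 0.17. Slpi, Tmigd1, Guca2a, Slc5a8 and Cldn4 kept their calls there (adjusted p = 0.0372, 0.029, 0.0456, 0.0364 and 0.0292), and Clca4a and Fabp2 did not (0.0508 and 0.0568).

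**Figure D3:**
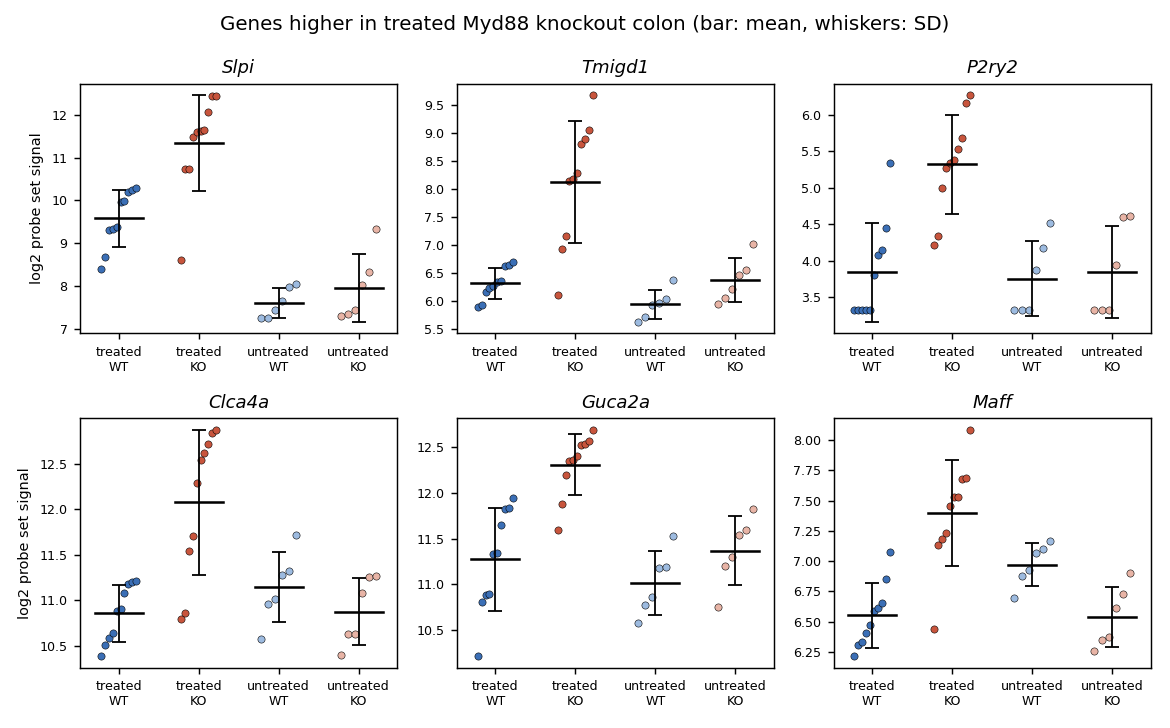
Log2 signal (vertical axes) of 6 genes with a held rise, in each array of the 4 groups (dots), with the group mean (bar) and SD (whiskers). The 10 treated KO arrays sit mostly above the 10 treated WT arrays, with single exceptions such as treated KO repeat 6 for Slpi and Tmigd1, while the 2 untreated groups overlap for each gene.

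Igha, Jchain, Ccl28 and Pigr, which all serve secretory IgA, fell in KO colon. IgA is made by plasma cells of the gut wall, joined by Jchain, drawn to the mucosa by the epithelial chemokine Ccl28 and carried across the epithelium by Pigr. These 4 genes were chosen after their values were seen, each from a list written for this comparison. Igha, the IgA heavy chain, was at 11.85, 12.52 and 12.79 as lowest, median and highest WT array and 10.63, 11.42 and 12.28 in KO. It fell in all 3 of its probe sets, by 0.96 ± 0.18 (adjusted p = 0.00519), with KO repeats 3 and 10 above the lowest WT arrays. Jchain was at 10.06, 11.03 and 11.88 as lowest, median and highest WT array and 8.62, 9.43 and 10.23 in KO, a difference of -1.54 ± 0.26 (adjusted p = 0.00294) and a 2.91-fold lower level in KO; a single KO array, repeat 10, was above the lowest WT arrays. Ccl28 fell in all 3 probe sets, between 9.92 and 10.70 (median 10.46) in WT and between 8.54 and 10.44 (median 9.55) in KO mice, at -0.87 ± 0.18 (adjusted p = 0.00962). Pigr fell in both probe sets by a smaller amount, -0.38 ± 0.09 (adjusted p = 0.023), close to the top of the scale. All 4 calls were held. In untreated mice the differences were -0.17, -0.37, -0.13 and -0.17, none called. With the tissue covariates Pigr had an adjusted p of 0.0514, and the other 3 kept their calls.

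Of 20 immunoglobulin genes with a probe set of their own, 14 were lower in KO, with a median of -0.91. Of these 20, 8 were called lower and 0 higher, where 3.33% of all genes were called lower. Of the 8 calls 7 were held, against 260 held falls among all 18193 genes. Without WT repeats 1 and 2 the count called lower was 7. The untreated median was -0.24, with 0 called there by limma. Probes for variable genes share sequence, so these are not independent counts. Of 19 B and plasma cell markers 3 were called lower (15.8%, against 3.33% of all genes lower). These were Jchain, Igha and Mzb1, a chaperone of antibody secretion. Of the 19 markers 15 pointed down. Their list median of -0.44 was -0.26 without WT repeats 1 and 2 and -0.13 with the tissue covariates. Under either change 2 of the 19 were called lower, Jchain and Igha. The 4 markers that pointed up were Sdc1, Prdm1, Ighm and Tnfrsf17, none called by the brightest probe set. Sdc1, the brightest uncalled marker, differed by 0.26 ± 0.11 (adjusted p = 0.198). Other Sdc1 probe sets were called higher, at 0.54 ± 0.14 (adjusted p = 0.0278) and 0.69 ± 0.18 (adjusted p = 0.0304). Mzb1, at -0.77 ± 0.21, was not held (adjusted p = 0.0826 without those arrays, and up to 0.0662 without any 1 of WT repeats 1, 2, 3, 4, 8 and 10 or KO repeats 2, 4, 5, 7 and 8). The mean of the whole marker list ran from 6.04 to 7.09 in WT and from 5.50 to 6.73 in KO arrays, and WT repeat 1 was the highest. Its part in the antibody results was not tested. MHC class II genes pointed the same way, 10 of 12 lower with a median of -0.37, but 1 was called (8.33%, against 6.72% of all genes). This was H2-DMb2, at -0.95 ± 0.27. Its call ended at up to 0.082 without any 1 of 16 arrays, all but WT repeat 9 and KO repeats 3, 6 and 10.

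**Figure D4:**
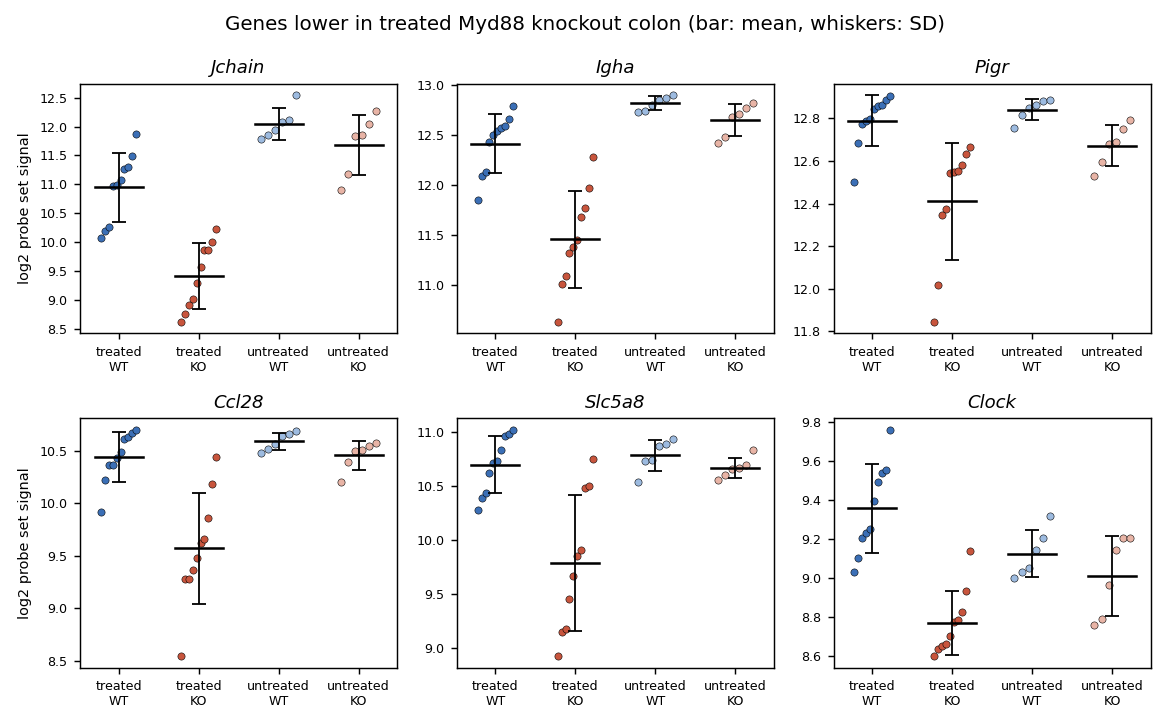
Log2 signal (vertical axes) of 6 genes with a held fall, in each array of the 4 groups (dots), with the group mean (bar) and SD (whiskers). Treated KO arrays lie mostly below treated WT arrays, while the 2 untreated groups overlap for each gene, and the median of Jchain is 11.03 across treated WT and 9.43 across treated KO arrays.

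Genes of low oxygen and glycolysis leaned up by small amounts. Of 23 measured, 21 were higher, with a median of 0.22 (-0.02 untreated). The genes called higher were 6 (26.1%, against 3.39% of all genes), 5 of them held. This count was 6 without WT repeats 1 and 2 and 5 with the tissue covariates. Car9, the membrane carbonic anhydrase that HIF induces, rose by 0.77 ± 0.14 (adjusted p = 0.00446): it lay between 7.77 and 8.77 (median 8.40) in WT and between 8.72 and 9.48 (median 9.18) in KO mice. Egln3, a prolyl hydroxylase that acts on HIF, rose by 0.69 ± 0.14 (adjusted p = 0.0103) and Hif1a, the factor itself, by 0.47 ± 0.11 (adjusted p = 0.0203, 3 of 4 probe sets). The glycolytic enzymes Ldha and Pkm rose by 0.33 ± 0.06 (adjusted p = 0.00333) and 0.32 ± 0.06 (adjusted p = 0.00811; 0.0508 with the tissue covariates). Slc2a1, the glucose carrier, rose by 0.50 ± 0.13 in all 3 probe sets, but ended without any 1 of WT repeats 2, 3, 4, 8 and 10 or KO repeats 3, 4, 5, 7 and 10, at up to 0.0635. Aldoa, the brightest member not called, was at 0.12 ± 0.05.

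Of 28 immediate early genes, which answer within minutes to growth and stress signals, 25 were higher in KO. Their median was 0.38 (0.08 untreated), and 2 were called (7.14%, near the 6.72% of all genes). Maff, a small Maf factor of the stress response, rose by 0.84 ± 0.16 (adjusted p = 0.00588), and lay between 6.21 and 7.07 (median 6.53) in WT and between 6.44 and 8.09 (median 7.49) in KO mice. Junb, a subunit of AP-1, rose by 0.88 ± 0.22 (adjusted p = 0.025; 0.0598 without WT repeats 1 and 2). Of 25 genes of the unfolded protein response 20 were higher and 3 called (12%, against 6.72% of all genes). Dnajb11, a co-chaperone of the endoplasmic reticulum, rose by 0.52 ± 0.10 (adjusted p = 0.00809). Edem1, which sorts misfolded glycoproteins for disposal, rose by 0.31 ± 0.07 in its brighter probe set (adjusted p = 0.0124, and 0.0628 with the tissue covariates). The other probe set of Edem1 pointed down at -0.14 and was not called (adjusted p = 0.274). Asns, asparagine synthetase, rose by 0.55 ± 0.15; its adjusted p fell to 0.00795 without WT repeats 1 and 2 but rose to up to 0.0677 without any 1 of WT repeats 2, 3, 4, 5, 7, 8 and 10 or KO repeats 1, 4, 5, 7, 8 and 10. Hspa5, the central chaperone BiP, differed by 0.11 ± 0.14 (adjusted p = 0.707).

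Cell division genes leaned down. Of 34 genes of mitosis 33 were lower in KO, with a median of -0.33 against -0.14 untreated and -0.29 without WT repeats 1 and 2, but 2 were called (5.88% against 3.33% of all genes lower). Ccnb2, a mitotic cyclin, fell by 0.77 ± 0.20 (adjusted p = 0.029) and Mki67, the proliferation marker, by 0.71 ± 0.20 (adjusted p = 0.0381). The Mki67 signal was between 7.62 and 9.03 (median 8.15) in WT and between 6.91 and 8.41 (median 7.54) in KO mice. Neither call was held: their adjusted p was 0.0666 and 0.0724 without WT repeats 1 and 2. Ccnb2 ended without any 1 of WT repeats 4 and 8 or KO repeats 2 and 4 (up to 0.0538), and Mki67 without any 1 of WT repeats 1, 3, 4, 8 and 10 or KO repeats 2, 3, 4, 5 and 10 (up to 0.071). Among 31 genes of DNA replication 1 was called (3.23%, against 6.72% of all genes), and the median was 0.00. This was Mcm2 of the replicative helicase, higher at 0.49 ± 0.12 (0.0556 without WT repeats 1 and 2). Of the stem cell genes, Lgr5 at -0.22 ± 0.35 and Ascl2 at -0.51 ± 0.47 were dim and not called (adjusted p = 0.789 and 0.59). Prom1, a membrane glycoprotein of crypt and surface cells, was called higher at 1.13 ± 0.28 (0.072 without WT repeats 1 and 2). Znrf3, the Wnt feedback ligase, was called lower at -0.52 ± 0.14, and ended at up to 0.0601 without any 1 of WT repeats 2, 5, 8 and 10 or KO repeats 4, 5 and 7.

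AOM damages DNA, and 3 of 40 repair genes were called lower and 0 higher (7.5% against 3.33%). Atm, the kinase that responds to double-strand breaks, fell by 0.54 ± 0.10 (adjusted p = 0.00542) in 1 of 2 probe sets. It lay between 7.04 and 7.54 (median 7.33) in WT and between 6.31 and 7.24 (median 6.76) in KO mice, and differed by -0.03 without treatment. Ddb2 and Atr, at -0.55 ± 0.15 and -0.32 ± 0.09, were not held, at up to 0.0721 and 0.0843: WT repeats 2, 6, 8, 9 and 10 and KO repeats 2, 3, 4, 5, 7 and 10 each ended both, WT repeats 3 and 7 and KO repeat 8 Ddb2 alone, and WT repeats 1, 4 and 5 and KO repeats 1 and 6 Atr alone. The median of the list was -0.07. Of 23 p53 target genes 2 were called (8.7%, against 6.72% of all genes). Both were lower, Ddb2 again and Sesn1 at -0.69 ± 0.19. Sesn1 ended without any 1 of WT repeats 1, 2, 5, 6, 7, 8 and 10 or KO repeats 1, 2, 4 and 5. Its adjusted p was then up to 0.0749.

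In the circadian clock, Clock, the activating factor, fell by 0.59 ± 0.09 (adjusted p = 0.00162) in 2 of its 4 probe sets. Its lowest, median and highest WT arrays were at 9.03, 9.33 and 9.76 and its KO arrays at 8.60, 8.74 and 9.14. Per1, a repressor of the clock, rose by 0.64 ± 0.15 (adjusted p = 0.0176; 0.0574 without WT repeats 1 and 2). The other 16 of 18 clock genes were not called (11.1% called, against 6.72% of all genes), and the labels give no hour of collection. In fat metabolism, 3 of 22 genes of fatty acid oxidation and PPAR were called, all lower (13.6%, against 6.72% of all genes). Acadm and Hadhb, enzymes of mitochondrial beta-oxidation, fell by 0.44 ± 0.10 and 0.38 ± 0.09 (adjusted p = 0.0153 and 0.0216). Both calls ended with the tissue covariates (0.0859 and 0.0875), and the other probe sets of Hadhb were not called. Ppara, the receptor that induces them, fell by 0.74 and ended, at up to 0.0872, without any 1 of 16 arrays, all but WT repeat 6 and KO repeats 1, 6 and 9. Among 35 genes that handle foreign compounds, 3 were called higher and 2 lower (14.3% called, against 6.72% of all genes). Abcg2, an efflux pump, rose by 0.79 ± 0.17 (adjusted p = 0.0103) and Cyp4f14, a fatty acid hydroxylase, by 0.97 ± 0.22 (adjusted p = 0.0175), and both calls ended with the tissue covariates (0.0528 and 0.0784). The calls of Cyp2c65 (higher, 0.69 ± 0.20), Sult1a1 (-1.37 ± 0.37) and Ephx1 (-0.44 ± 0.12) were not held, with adjusted p of 0.108, 0.0893 and 0.105 without WT repeats 1 and 2. WT repeats 2, 4, 8 and 10 and KO repeats 2 and 5 each ended all 3 calls, and for 1 or 2 of them so did WT repeats 1, 3, 5, 6 and 7 and KO repeats 1, 3, 4, 6, 7, 8 and 10, at up to 0.0798.

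Hormone cells of the epithelium pointed up: of 23 enteroendocrine genes 19 were higher, with a median of 0.37 (0.02 untreated). The genes called higher were 6 (26.1%, against 3.39% of all genes), but 0 of the 6 were held. The called genes were the hormones Pyy, at 0.57 ± 0.15, and Sst, at 0.88 ± 0.20, the granins Chga, at 0.75 ± 0.19, and Chgb, at 0.70 ± 0.19, and the convertase Pcsk1 and its inhibitor Pcsk1n, at 0.42 ± 0.12 and 0.40 ± 0.12. Their adjusted p without WT repeats 1 and 2 lay between 0.0565 and 0.111. Sst and Chga lasted with any single array left out; the other 4 ended without any 1 of WT repeats 2, 4 and 8 or KO repeats 2, 4, 5 and 10, and 1 or more of them without WT repeats 1, 3, 5, 6, 7, 9 and 10 or KO repeats 3, 7 and 8, at up to 0.0814. Of 16 genes of enteric neurons and glia 2 were called higher and held (12.5%, against 3.39% of all genes called higher). They were Gal, the neuropeptide galanin, at 0.82 ± 0.17 (adjusted p = 0.0111), and Gfap, the glial filament, at 0.70 ± 0.14 (adjusted p = 0.00877, 1 of 3 probe sets). With the tissue covariates the adjusted p of Gal was 0.0508, and Gfap kept its call.

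Markers of most immune cells held no called gene. Of 21 T and NK cell, 16 macrophage and monocyte, 12 neutrophil, 9 dendritic cell and 4 erythroid genes 0 were called by limma, with 2 at an unadjusted p under 0.05. Nor were any of 30 interferon-induced and 12 MHC class I genes called (3 and 2 at an unadjusted p under 0.05). The macrophage mean spread more among KO arrays, from 6.91 to 9.06, than among WT arrays, from 7.55 to 8.39. Of 14 mast cell and eosinophil genes 1 was called (7.14%, near the 6.72% of all genes). This was Mcpt2, a mast cell protease, at 1.63 ± 0.42 (adjusted p = 0.0291). The adjusted p was 0.0608 without WT repeats 1 and 2. It was up to 0.0565 without any 1 of WT repeats 2, 4 and 8 or KO repeats 2, 4 and 5. Of 10 tuft cell genes 1 was called (10%, against 6.72% of all genes). This was the channel Trpm5, higher at 0.68 ± 0.19. Its call ended without any 1 of WT repeats 1, 3, 4, 5, 7 and 8 or KO repeats 1, 2 and 4 to 8, at up to 0.0745. The other probe sets of Trpm5 were not called. Fibroblast (12), endothelial (10), smooth muscle (14) and adipocyte (6) markers held 0 called genes (0, 2, 0 and 0 at an unadjusted p under 0.05), with medians of -0.05, 0.20, -0.10 and 0.11.

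**Figure D5:**
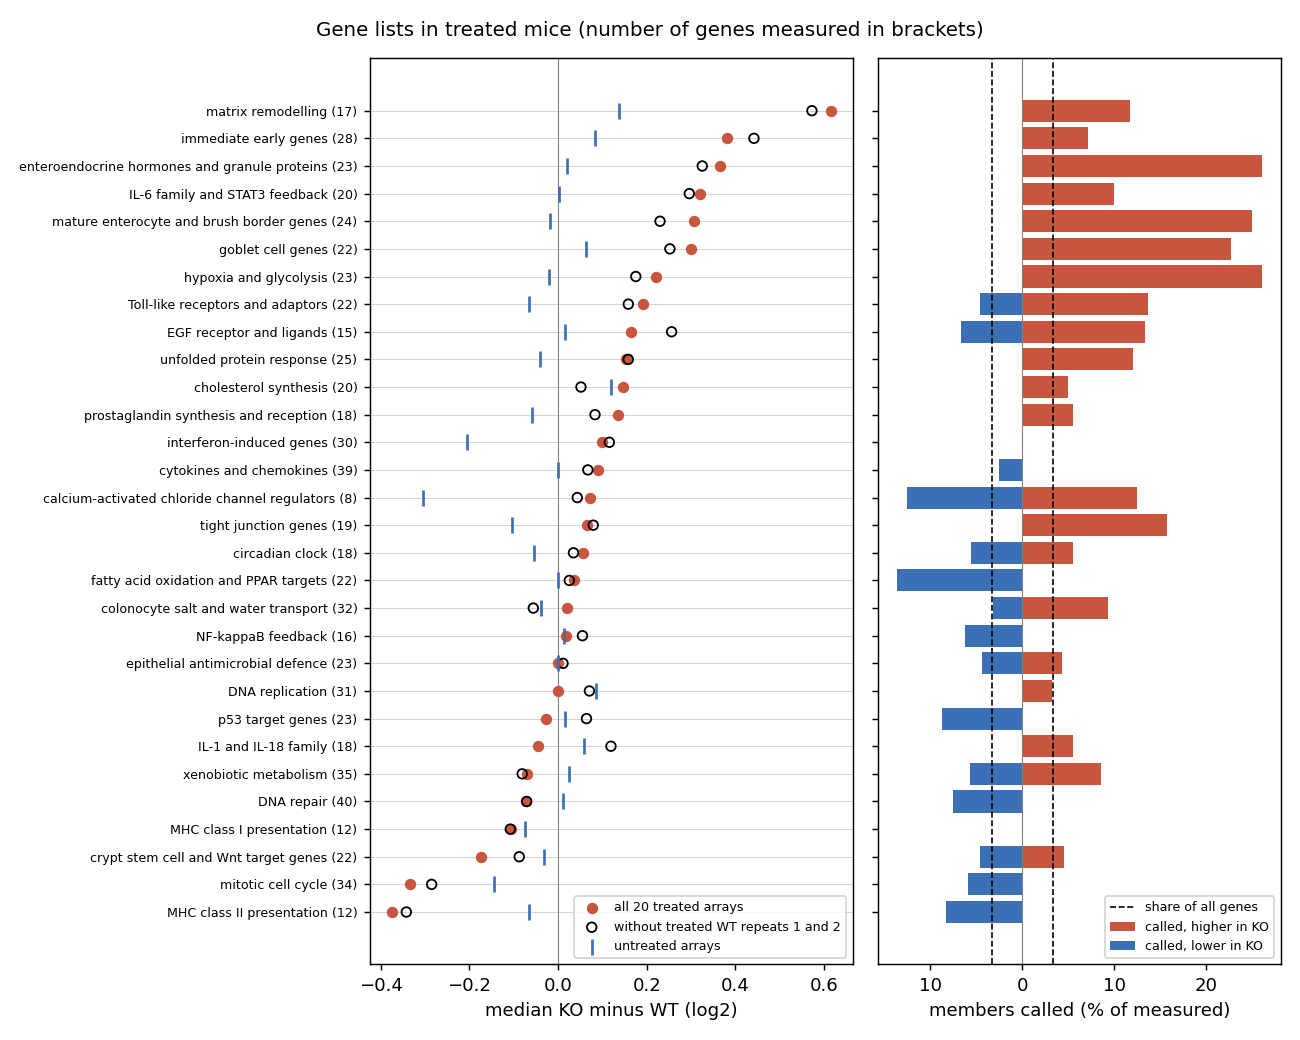
Left, the median KO minus WT difference (log2) of each pathway list in all 20 treated arrays (filled), without treated WT repeats 1 and 2 (open) and in untreated arrays (ticks). Right, the percentage of measured members called higher (to the right) or lower (to the left) in treated KO mice, beside the shares of all genes, 3.39% and 3.33% (dashed). The shares called higher of the enteroendocrine, hypoxia, enterocyte and goblet lists reach furthest to the right.

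Whether the genotype difference itself changed with treatment was tested as an interaction over all 32 arrays. It was called for 10 probe sets (0.0286%) and 6 genes (0.033%), and all but Gm31881, a predicted gene at the floor in every treated array, were also called between the treated genotypes. A4galt, which makes the glycolipid Gb3, differed by 0.68 ± 0.14 in treated and -0.98 in untreated mice, an interaction of 1.67 ± 0.26 (adjusted p = 0.00847). For Maff the 2 differences were 0.84 and -0.43, an interaction of 1.28 (adjusted p = 0.0289). Wsb2, a substrate adaptor of ubiquitin ligases, Ppp4r1, a subunit of phosphatase 4, and Coq10b, a coenzyme Q-binding protein of mitochondria, had interactions of 0.58, 0.55 and 0.60 (adjusted p = 0.0117, 0.0117 and 0.0349). A4galt alone of these 5 kept the call under each of the changes tried: without WT repeats 1 and 2 (adjusted p = 0.0278), with the tissue covariates (0.0294), with the replicate number as a block (0.0241) and in the values as deposited (0.0462) among them. With the tissue covariates Maff, Coq10b, Ppp4r1 and Wsb2 were at 0.0795, 0.0795, 0.067 and 0.0539. Without WT repeats 1 and 2 Maff (0.0651) and Coq10b (0.0796) lost it, with the block Coq10b (0.0849) and Wsb2 (0.102), and in the values as deposited Maff (0.0565). Coq10b was the 1 of them whose treated ranges did not overlap, as in 43 genes of all (0.236%): it was between 8.88 and 9.21 (median 9.06) in WT and between 9.31 and 9.81 (median 9.56) in KO mice. For the rest of the rises and falls above, the interaction did not pass after adjustment, so a difference between treated and untreated mice was not shown for Slpi (unadjusted p = 0.025), Tmigd1 (0.00802), Jchain (0.00479), Igha (0.00247), Hif1a (4.67e-05) or Cldn4 (0.000178).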

How the data were processed

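RNA of each distal colon was measured on its own array. The deposited values are log2 probe set signals; the values themselves show that the authors scaled each array to a 2% trimmed mean near 151 (150.9 to 151.3) and raised signals under 10 to 10 (the floor, log2 value 3.322), where 18.7% to 23.9% of an array's probe sets lie. The summarising software and array dates are not given in the sources used here. Differences against the floor or near the top of the scale are understated.

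The 32 arrays were quantile normalized, because deposited medians ran from 5.16 to 5.53. Of 45101 probe sets 34958 had 1 gene symbol, 932 several and 9211 none; 13 controls were left out, and 34945 were tested. Symbols came from the platform annotation, updated through RefSeq gene numbers for 34741. Limma 3.58.1 in R 4.3.3 was fitted to the 20 treated arrays alone (18 residual and 0.85 prior degrees of freedom), two-sided, with Benjamini-Hochberg adjustment over all probe sets; the 12 untreated arrays, and all 32 for the interaction, were fitted likewise. A gene is represented by its probe set with the highest mean, and its other probe sets need not be called. Those of Atr, Ddb2, Mcm2, Znrf3, H2-DMb2, Ptgds and Slc9a3 were not. Precision is limited by the number of arrays, and p-values measure the spread between these mice.

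Members and gene lists were chosen with earlier results of these data known. Named genes were the 10 largest held rises and falls (predicted genes left out, at most 1 immunoglobulin gene each way), up to 3 held members of a list, core genes, and called genes near Myd88. The brightest uncalled member was picked for each list too, but is printed for some lists alone. Other called list members were named after their values were seen. On simulated arrays of the treated design, over 34945 probe sets, 94% of 2-fold and 100% of 4-fold changes were recovered, with 5.37% of calls false. These arrays were independent normal values for each probe set, without a floor, outlying arrays or shared tissue signal. Changes were planted only in probe sets above the 40th percentile of mean signal. The shares describe that setting and are not rates for the real arrays. Alternatives are in the closing section.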

Additional observations from a re-analysis of the deposited data

Results flagged for a closer look

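In 25 of 264 groups of 10 treated arrays examined, 1 array lay further from its neighbour than Dixon's critical value for 10 arrays allows, where chance flags about 1 group in 20. Most were treated WT repeat 1, the array with the highest squamous mean. It was the lowest WT array for the epithelial genes Cdhr2 (9.22), Cldn3 (10.93), Cldn7 (11.50), Cyp4f14 (5.23), Eps8 (9.91), Hoxb13 (10.74), Krt20 (10.67), Pcsk1n (6.15), Pyy (10.35), Tff3 (12.45) and for the colon epithelium mean (11.53). It was the highest WT array for Acadm (11.45), Asns (8.97), Clca2 (5.70) and Hadhb (11.82). The part of its squamous tissue in these values was not tested.

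Treated KO repeat 9, the KO array with most skeletal muscle signal (mean 9.32), was low for Muc2 (12.72) and Ppp4r1 (9.23) and high for Ascl2 (6.59). Treated KO repeat 6 was low for Slpi (8.61), Spink4 (12.28) and Mobp (3.32). Single WT arrays stood apart for Erdr1 (repeat 4, 8.81), Il1b (repeat 2, 6.86) and A4galt (repeat 2, 5.25).

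The interaction of genotype and treatment passed by limma in 5 named genes, of which A4galt alone kept the call with the tissue covariates: the differences of differences were 1.67 for A4galt, 1.28 for Maff, 0.60 for Coq10b, 0.58 for Wsb2 and 0.55 for Ppp4r1.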

How the results depend on the processing

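Probe sets called between the treated genotypes numbered 2146. At an adjusted p under 0.01 they were 431, and with a 2-fold minimum added to 0.05 they were 124. One probe set for each gene gave 1336, leaving out WT repeats 1 and 2 gave 1057, the 3'/5' control difference as a covariate 1003, both tissue means as covariates 675 and a fit of all 32 arrays 3763. Leaving out 1 array gave 1318 to 3339. Median centring (1830), deposited values (2319), a filter on dim probe sets, a trended and robust prior, Xist as a covariate, normalizing the 20 arrays alone and array weights stayed within 1.5 times. Repeat numbers did not pair the samples: the correlation of deviations was over 0.1 in 1 of 10 pairs, and 0 arrays correlated best with their own number. With the replicate block 487 probe sets were called.

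The untreated count of 35 was 23 with median centring, 23 with the tissue covariates, 54 with the Xist covariate and 1 with the replicate block. The interaction count of 10 was 49 with median centring, 36 without dim probe sets, 17 with the other prior, 97 with the 3'/5' covariate, 6 without WT repeats 1 and 2, 2 with the tissue covariates and 5 with the replicate block. The causes were not tested. Of the 17 genes called in both treated and untreated mice, 10 were left with the tissue covariates and 0 with the replicate block.

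Over the named genes no direction of a call reversed. Of 2400 gene values under alternatives other than single left-out arrays, 2113 kept their side of the threshold, 268 lost the call and 19 gained it; with 1 array left out these were 3307, 403 and 10 of 3720. Dim genes near the floor and genes near the top of the scale have compressed differences.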

Other observations

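Treated KO mice differed among themselves in some of the genes that were higher on average. KO repeat 6 was at 8.61 for Slpi, 6.10 for Tmigd1, 3.32 for Retnlb and 6.18 for Mmp3, and it had the highest KO value of S100g, 7.99. KO repeat 3 was at 12.07, 8.28, 11.56 and 9.79 for the first 4 genes, at 8.29 for Il11 and at the floor for S100g. The mean of 14 mast cell and eosinophil genes lay between 4.21 and 4.44 in treated WT and between 4.34 and 5.47 in treated KO mice, with 10 of its genes higher in KO. Of 20 cholesterol synthesis genes 16 were higher in KO with a median of 0.15, and 1 was called (5%, near the 6.72% of all genes). This was Pmvk, at 0.44 ± 0.12, a call that ended at an adjusted p of 0.127 by limma without WT repeats 1 and 2.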
